A study of Mus musculus with 12 samples.

Results

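The whole-lysate RNA of 3T3-L1 adipocytes was examined in the 4 libraries labelled Input, of 12 libraries in the series. The other 8 libraries hold RNA precipitated with an antibody to CPEB4, which regulates poly(A) tails and translation of mRNAs through elements in their 3′ UTRs (4 libraries), or with a control immunoglobulin (4 libraries). Reads were counted per 3′ UTR, and features were ranked by their mean CPM over the 4 Input libraries (counts per 1e6, with the Lars2 feature left out of the totals). Of 20586 3′ UTR features in the table, 14810 other than Lars2 had a count in at least 1 Input library. 3T3-L1 is an immortalized mouse preadipocyte line. Per the labels, cells in every group were taken to day 8 of differentiation and then exposed to a 500 µM free fatty acid mixture (palmitic acid at 300 µM, oleic and linoleic acid at 100 µM each) over 24 h. Induction medium, used until day 2, contained IBMX at 0.5 mM, dexamethasone at 1 µM, insulin at 10 µg/mL and the PPARG agonist rosiglitazone at 2 µM, and later medium contained only insulin. No group went without fatty acids, and no undifferentiated cells were included among the samples analysed here, so an effect of the fatty acids or of differentiation could not be measured. Input RNA alone was poly(A) selected, and RNA came from a RIPA lysate. The labels do not say whether replicates came from separate cultures, so the spread and the p-values below refer to these libraries and may be technical.

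White adipocytes store fatty acids as triglyceride in a lipid droplet coated by perilipins and release them again by lipolysis. The nuclear receptor PPARG, together with C/EBP factors, switches on genes for fatty acid uptake, triglyceride synthesis and secreted adipokines as preadipocytes differentiate, while preadipocyte genes such as Dlk1 are switched off. Insulin stimulates glucose uptake in these cells through the glucose transporter SLC2A4, and glycolysis supplies the glycerol backbone of triglyceride.

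Total counts were 1418646 in Input replicate 1, 1214274 in replicate 2, 858028 in replicate 3 and 1578084 in replicate 4. The Lars2 feature took 12.2%, 14.1%, 7.79% and 7.99% of them. Between 8931 and 11404 features had a count in each library, 5873 features had a count in all 4, and 3359 had a count in only 1. A floor of 3 counts in a library corresponded to 2.07 to 3.79 CPM, a limit that covers counting error only. Replicate 1 detected the most features, but 21.1% of its detected features rested on 1 to 5 counts, against 7.37% to 12.0% in the other libraries. Replicate 3 held 1409 of the features seen in only 1 library, with a median of 15 counts each. The titles carry 2 runs of library numbers, 728 and 731 for replicates 1 and 2, and 395 and 398 for replicates 3 and 4, and the pairs of libraries named throughout follow these numbers. Divided by its degrees of freedom, the chi-square of counts between libraries was 10.8 within the former pair, 25.8 within the latter and 30.2 to 39.3 across the pairs, so values are given per library throughout. Pearson's r of log2 CPM across 9273 features, which are not independent replicates, was 0.885 between replicates 1 and 2 and 0.644 between replicates 3 and 4. Replicate 4 correlated more closely with replicates 1 and 2 (0.755 and 0.760) than with replicate 3, and replicate 3 stood apart from replicates 1 and 2 (0.538 and 0.559). By correlation, then, replicates 3 and 4 do not form a distinct pair.

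Promoter sequence is shown for 3 glycolytic genes and 2 secreted-protein genes, as members of these groups ranked high and several differed between the library pairs. Matches were sought in Tpi1, Aldoa, Ldha, Pkm and Gpi1 and in C3, Hp, Lcn2, Cfd, Adipoq and Agt, and only genes with a match are shown. Tpi1, Gpi1, Hp, Cfd, Adipoq and Agt gave none, and Pkm, which is shown, differed little between the pairs. The windows are RefSeq sequence on GRCm38.p6, 30 bases each and in the direction of transcription. Capitals mark ACGTG or its reverse complement, the core of the hypoxia response element, in the glycolytic genes, and TTGCNNAA, a C/EBP-like motif, in the other genes.
Aldoa, chr7:126799363-126799392, minus strand: tgtggctcgagtCACGTcctagcggggcgg
Ldha, chr7:46845744-46845773, plus strand: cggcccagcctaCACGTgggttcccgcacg
Pkm, chr9:59657140-59657169, plus strand: ctccgatccggtCACGTccgcgccgcagca
C3, chr17:57228163-57228192, minus strand: aggaaactatgTTGCGAAAttttgggcagt
Lcn2, chr2:32387937-32387966, minus strand: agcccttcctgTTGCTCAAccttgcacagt
On either strand of the 300-base promoter windows, ACGTG was present in 8 of 13 glycolytic genes (61.5%), against 21.8% of the 27025 genes in the RefSeq promoter table. Some genes have several promoters: per promoter it was present in 10 of 23 (43.5%), against 19.6% of 32851. Triglyceride synthesis genes held it in 6 of 14 (42.9%). TTGCNNAA was present in 6 of 20 genes for secreted proteins with a promoter in the table (30%), against 12.2% of genes, and in 25% of their promoters, against 10.8% of promoters. Several matches to ACGTG in the Ldha promoter overlap each other as CACGTG. These matches describe letters only, and nothing in the data bears on binding there.

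The most abundant feature was that of Fth1, the ferritin heavy chain that stores iron. Its 3′ UTR (mm10 chromosome 19, 9984943 to 9985092) held 25159, 30029.8, 32934 and 41554 CPM in replicates 1 to 4, a mean of 32419 ± 6883 (SD, n = 4), and it led every library. The ferritin light chain gene Ftl1 was also among the 30 most abundant features with 2964 ± 1060 CPM, and an unnamed transcript that overlaps it on the same strand had 6781 ± 2777 CPM, so reads of these features may be shared. The feature in the next place, Wdr89, had 23580, 20502, 3731 and 4929 CPM. It overlaps a pseudogene of the ribosomal protein gene Rplp2, so its level cannot be assigned to Wdr89. Rpl41, a protein of the large ribosomal subunit, followed with 15880.0, 14405, 7408 and 9975 CPM. Both of these features were higher in replicates 1 and 2 than in replicates 3 and 4, with no overlap.

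Enzymes of glycolysis and of triglyceride synthesis stood beside them. Tpi1, triosephosphate isomerase, had a mean of 11705.5 ± 5879 CPM, although its 3′ UTR overlaps that of Spsb2 on the opposite strand and it was not stated whether counting used the strand. Aldoa, aldolase A, had 11489 ± 5483 CPM, and Ldha, lactate dehydrogenase A, had 4976 ± 3491 CPM. Pcx, pyruvate carboxylase, which supplies oxaloacetate for citrate export and glyceroneogenesis, had 6072, 8763, 7456 and 8814 CPM, a mean of 7776 ± 1299. Gpd1, which makes glycerol 3-phosphate for triglyceride, had 3657 ± 1896 CPM. Lpl, the lipoprotein lipase that frees fatty acids from circulating triglyceride, ranked sixth with 8669, 10987.5, 7294 and 8825 CPM. Pcx and Lpl varied little between the libraries, while Tpi1, Aldoa, Ldha and Gpd1 were higher in both of replicates 3 and 4 than in either of replicates 1 and 2.

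Among the 30 features with the highest CPM, 7 belonged to nuclear-encoded respiratory chain genes (Atp5d, Cox6a1, Atp5b, Atp5e, Uqcr10, Cox8a and Cox4i1), 5 to glycolysis, 6 to lipid uptake and storage, 2 to secreted proteins and 2 to ribosomal proteins. Over all features, respiratory chain genes took 6.32% ± 0.587 of the counts (SD, n = 4), lipid uptake and storage genes 4.98% ± 0.663, ribosomal protein genes 4.14% ± 1.80 and glycolytic genes 3.66% ± 1.70. The share of the respiratory chain genes thus had a smaller SD than that of glycolysis, which ran from 2.12% in replicate 1 to 5.78% in replicate 4. Gpx4, a peroxidase that reduces lipid peroxides, had 4135, 4464, 3554 and 4172 CPM. Tspo, the mitochondrial translocator protein, had 4589 ± 867.8 CPM. Crat, carnitine acetyltransferase, had 3254 ± 986 CPM, with a 3′ UTR that overlaps Dolpp1 on the opposite strand. Gm10076, which RefSeq lists as a pseudogene, had 5395 ± 1264 CPM.

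**Figure D1:**
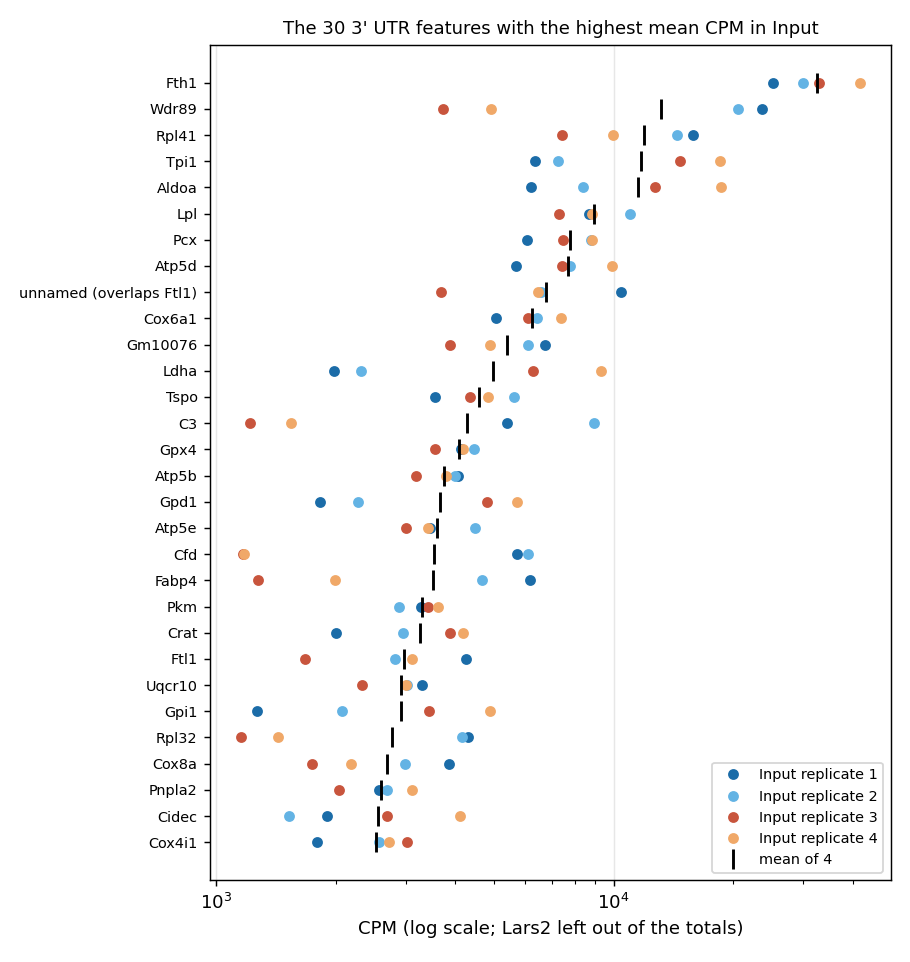
CPM (log scale, Lars2 left out of the totals) of the 30 most abundant 3′ UTR features in each Input library (points) with the mean of 4 (black bar). Fth1 is highest with a mean of 32419 CPM, and Wdr89, C3, Cfd and Rpl32 separate replicates 1 and 2 from the lower replicates 3 and 4.

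Expression was spread over many genes: the 10 most abundant features held 12.1% ± 1.38 of the counts and the 100 most abundant 31.2% ± 3.21 (SD, n = 4). Of the features, 13812 reached a mean of 1 CPM, 1764 reached 100 CPM and 123 reached 1000 CPM. Of the overall top 100, 60 features were in the top 100 of every library, and 17 of the overall top 30 were in the top 30 of every library. Abundant features had short 3′ UTRs, with a median of 268.5 bases in the top 30 and 418.5 in the top 100 against 775 over all features. To compare levels between genes, CPM was divided by 3′ UTR length and ranked over features of at least 200 bases, of which there are 16623. On this scale Rpl41 led with 43652 CPM per kb, followed by Cox6a1 with 31060.4 and Atp5d with 24103. Tspo (18885), Gpx4 (18468), Tpi1 (17138), Pcx (16759) and Ldha (10238) stayed among the 20 highest per kb, as did Dgat1 (6618), which makes triglyceride from diacylglycerol, and Tmem120a (10569) and Dbi (8811), an acyl-CoA binding protein. Fth1, Aldoa, C3, Cfd and Fabp4 have 3′ UTRs under 200 bases and were not ranked per kb.

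The label of a differentiated adipocyte was checked with Fabp4, Adipoq, Plin1 and Pparg. Fabp4, the adipocyte fatty acid binding protein (3′ UTR on mm10 chromosome 3, 10204347 to 10204519), had 6170.4, 4659.9, 1274 and 1992 CPM, rank 20. Adipoq, the hormone adiponectin (chromosome 16, 23157595 to 23158028), had 1324, 1111, 1092 and 1369.9 CPM, rank 94. Plin1, the perilipin of the adipocyte lipid droplet (chromosome 7, 79721164 to 79721420), had 337, 444, 556 and 722 CPM, rank 293. Pparg (chromosome 6, 115490196 to 115490401) had 62.6, 31.6, 48.0 and 31.7 CPM, rank 3570.0. All 4 markers were counted in every library. Fabp4 was higher in both of replicates 1 and 2, Plin1 was higher in both of replicates 3 and 4, and the pairs overlapped for Adipoq and Pparg. Only counts in the annotated 3′ UTR enter these values, so the rank of Pparg, whose feature is 206 bases long, refers to that feature.

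Lists of genes for the functions of an adipocyte held 73 distinct genes in the table after joining transcription factors, lipid droplet, fatty acid uptake and triglyceride synthesis. Genes of insulin signalling were kept as a separate list. The 73 genes of the joined lists summed to 47957, 53633, 49642 and 63789.7 CPM, a mean of 53756 ± 7100 (SD, n = 4). Of these 73, 60 were counted in all 4 libraries and 41 had a mean of 100 CPM or more. Per kb of 3′ UTR, the median member level was 145 CPM per kb. As these are bulk libraries, a difference in such a sum between libraries cannot separate fewer cells of a type from less RNA per cell.

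Lipid droplet and lipolysis genes were counted in all 4 libraries for 17 of 21 genes. Pnpla2, adipose triglyceride lipase, which cleaves the first fatty acid from triglyceride, had 2576, 2696, 2040.0 and 3119 CPM. Lipe, hormone-sensitive lipase, had 628, 902, 698 and 842 CPM, and Abhd5, the co-activator of Pnpla2, had a mean of 278 ± 46.5 CPM. Cidec, which enlarges droplets by lipid transfer, had 1904, 1531, 2700 and 4113 CPM, and Plin4 had 402, 442, 1219.7 and 2396 CPM, with a 3′ UTR that overlaps Hdgfrp2 on the opposite strand. G0s2, an inhibitor of Pnpla2, ran the other way with 544, 579, 162 and 202 CPM. Cidec and Plin4 were thus higher in replicates 3 and 4, G0s2 in replicates 1 and 2, and Pnpla2 and Lipe overlapped between the pairs. The perilipin gene Plin2 had 695, 678, 771 and 1096 CPM. Plin5, a perilipin of oxidative tissue, and Fitm1 were at 0 in all 4 libraries.

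For fatty acid uptake, Cd36, the fatty acid translocase, had 576, 428, 677 and 963 CPM, and Acsl1, which activates fatty acids to acyl-CoA, had 1216, 1134, 801 and 1139.9 CPM. Gpihbp1, which anchors lipoprotein lipase on capillary endothelium, was at 0 in all 4. In triglyceride synthesis, Dgat2 had 1636, 1806, 545 and 541 CPM and Scd1, stearoyl-CoA desaturase, had 2784, 2472, 966 and 967 CPM, both higher in replicates 1 and 2. Agpat2, an acyltransferase of glycerolipid synthesis, had 773, 786, 2276 and 3106 CPM, higher in replicates 3 and 4. Fasn, fatty acid synthase, had 656, 560, 944 and 877 CPM, while Acly, which makes cytosolic acetyl-CoA, had a mean of 44.1 ± 28.8 CPM and Acaca, acetyl-CoA carboxylase, 19.1 ± 22.1 CPM. On the scale per kb of 3′ UTR, Fasn had 397, Acly 49.5 and Acaca 9.71 CPM per kb, so these steps of fatty acid synthesis were recorded at different levels in their 3′ UTR features.

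Genes of fatty acid oxidation were counted in all 4 libraries for 19 of 27 genes. Hadha, the alpha subunit of the mitochondrial trifunctional protein, had 1006, 1476, 1859 and 2039 CPM, with a 3′ UTR that overlaps Gareml on the opposite strand. Acaa2, the thiolase of the last step, had 565, 676, 1485 and 1599 CPM. Both were higher in replicates 3 and 4. Cpt1a, the liver-type carnitine palmitoyltransferase of the outer mitochondrial membrane, had a mean of 38.8 ± 28.9 CPM and Pdk4, which restrains glucose oxidation and is induced by fatty acids in many tissues, 45.3 ± 16.1 CPM. Without untreated cells these are levels under fatty acids and not responses to them.

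Among the transcription factors, Nr1h3, the oxysterol receptor LXR alpha, had the highest level with 441, 740, 1319.5 and 1533 CPM, and Rxra, the partner of PPARG, had 625 ± 190 CPM. Cebpa, a partner of PPARG in differentiation, had 299, 261, 39.2 and 80.6 CPM, higher in replicates 1 and 2, and Tcf7l2, a nuclear effector of Wnt signalling, had 194, 316, 819 and 737 CPM, higher in replicates 3 and 4. Srebf1, a regulator of lipogenesis, had 29.7, 36.4, 0 and 26.2 CPM, so replicate 3 held none, which with 3 counts allows up to 3.79 CPM. Per kb of 3′ UTR, Nr1h3 stood at 3667, Pparg at 211 and Cebpa at 119 CPM per kb. Genes of insulin signalling and glucose uptake had a median of 27.1 CPM per kb. Slc2a4, the insulin-responsive glucose transporter, had 94.8, 141, 79.6 and 194 CPM, and Insr, the insulin receptor, a mean of 67.7 ± 19.3 CPM. Of 14 such genes in the table, 4 reached 100 CPM, and the highest was Tusc5 (a regulator of SLC2A4 traffic) at 199 ± 111 CPM.

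Several secreted proteins of adipocytes differed several-fold between libraries. C3, complement component 3, had 5399, 8923, 1216 and 1544 CPM in a 3′ UTR of 43 bases, and Cfd, adipsin, had 5709, 6111, 1168 and 1177 CPM in one of 70 bases. Hp, haptoglobin, had 2245, 4296, 78.4 and 138 CPM, and Lcn2, lipocalin 2, had 916, 898, 54.3 and 110 CPM. All 4 were several-fold higher in replicates 1 and 2, with no overlap. Agt, angiotensinogen, had 1897, 3214, 2212 and 2481 CPM, and Retn, resistin, had 469, 484, 212 and 239 CPM. The pairs overlapped for Agt, while Retn was higher in replicates 1 and 2. Lep, leptin, was at a mean of 11.7 CPM and Rbp4 at 3.48 CPM. Il6 and Tnf were at 0 in all 4 libraries. Saa3, an acute-phase protein, had 103, 61.3, 0 and 3.44 CPM.

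Preadipocyte and fibroblast genes were counted, at lower levels than the adipocyte lists. The 42 genes of this list summed to 4660, 2461, 2836 and 3420 CPM, a mean of 3344 ± 962 (SD, n = 4), with 17 counted in all 4 libraries and 6 at 0 in all 4. The median member stood at 15.8 CPM per kb, against 145 for the adipocyte genes. Vim, the intermediate filament vimentin, which adipocytes also express, made up a large part of the sum with 1535, 926, 1031 and 1734 CPM. Bgn, the matrix proteoglycan biglycan, had 652, 555, 262 and 415 CPM, Col1a2 484, 130.3, 181 and 203 CPM, and Col1a1 132, 82.4, 238 and 189 CPM. Of genes that mark the undifferentiated state, Dlk1, the preadipocyte factor that inhibits differentiation, had 117, 13.4, 17.7 and 3.44 CPM. Thy1 had 153, 33.5, 3.79 and 0 CPM. Pdgfra, a receptor of adipocyte progenitors, had 23.3, 0, 88.5 and 0 CPM. Dlk1 and Thy1 were highest in replicate 1, and Pdgfra was found only in replicates 1 and 3. Dpp4, Wnt10b, Nt5e, Fap, Cnn1 and Twist1 were at 0 in all 4 libraries, which with a floor of 3 counts allows up to 3.79 CPM in the shallowest library.

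**Figure D2:**
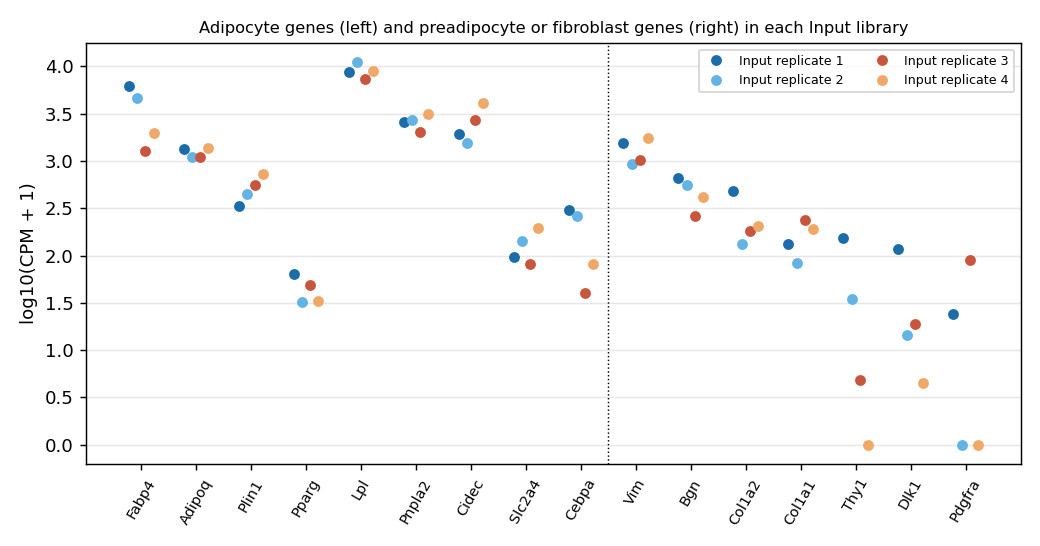
log10(CPM + 1) of adipocyte genes (left of the dotted line) and of preadipocyte or fibroblast genes (right) in each Input library. Lpl, Pnpla2, Cidec and Adipoq stay above 1000 CPM in all 4 libraries, while Thy1 and Dlk1 are highest in replicate 1 and Pdgfra is at 0 in replicates 2 and 4.

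Markers of dividing cells were low. Of 22 genes of DNA replication and mitosis, none reached a mean of 100 CPM, 13 had a mean under 10 CPM, and they summed to 212, 120, 365 and 136 CPM. Only 2 of the 22 were at 0 in all 4 libraries, against 5775 of the 20586 features in the table. Features with a count had a median of 13.6 CPM, so the number under 10 CPM is read no further. Mki67 stood at a mean of 0.602 CPM, Top2a at 2.21 CPM and Pcna at 4.64 CPM. Tyms, thymidylate synthase, had 4.02, 16.3, 130 and 15.8 CPM. Brown and beige adipocyte genes were led by Kcnk3, a potassium channel, with 545, 930, 848 and 931 CPM. Ucp1, the uncoupling protein that defines brown fat, was at 0 in all 4 libraries, as were Tbx1, Tnfrsf9, Cpn2 and P2rx5. Cidea stood at a mean of 9.91 CPM, Dio2 at 11.1 CPM and Cox7a1, a subunit isoform of muscle and brown fat, at 27.3, 49.8, 149 and 33.8 CPM.

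Genes of other lineages were absent or low in most cases. Of 134 genes for macrophages, endothelium, skeletal muscle, cartilage and bone, neurons and glia, liver, epithelium, lymphocytes, red cells and pluripotent cells, 57 were at 0 in all 4 libraries, 40 were counted in only 1, and 106 had a mean under 10 CPM. In the whole table of 20586 features, 5775 were at 0 in all 4 and 3359 were counted in only 1. Features with a count had a median of 13.6 CPM. Genes at 0 in all 4 included the macrophage genes Adgre1, Ptprc, Mrc1, C1qa, C1qb and C1qc, the endothelial genes Tek, Tie1 and Vwf, the muscle genes Myod1 and Ttn, the liver genes Alb and Apoa1, and the pluripotency gene Sox2. Other members of these lists were counted. The highest means were 77.3 CPM for Lyz1 (macrophage), 26.4 for Flt1 (endothelium), 6.49 for Cps1 (liver) and 7.12 for Nanog (pluripotency). Only Des among the 134 reached a mean of 100 CPM. Des, the intermediate filament desmin, had 345, 265, 173 and 225 CPM, while none of the other muscle genes exceeded a mean of 26.2 CPM (Acta1). Foxp3 had 32.1, 83.4, 59.4 and 67.5 CPM, but its 3′ UTR overlaps that of Ccdc22 on the opposite strand, so the reads cannot be assigned to it.

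The summed level of these lineage genes was 576, 723, 2020 and 853 CPM. Replicate 3 was the highest library and counted 47 of the 134 genes, against 26 to 41 in the others. In replicate 3, Lyz1, a lysozyme, had 276 CPM against 0, 0 and 33.8 CPM, and Cd8a had 116 CPM against 0, 0 and 24.8 CPM. Mertk, a receptor for dying cells, had 23.3, 35.5, 135 and 105 CPM. The macrophage list summed to 73.1, 69.97, 578 and 162 CPM, and 10 of its 20 genes, including those named above, were at 0 in all 4 libraries. Hbb-bs, a beta-globin, had 153 CPM in replicate 2 and 0 in the other libraries. Whether the lineage reads in replicate 3 come from the cells or from elsewhere was not tested. For comparison, the adipocyte lists summed in replicate 3 to 49642 CPM, and replicate 3 had the fewest counts and the longest count-weighted 3′ UTR length, 1593 bases against 1030 to 1269.

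**Figure D3:**
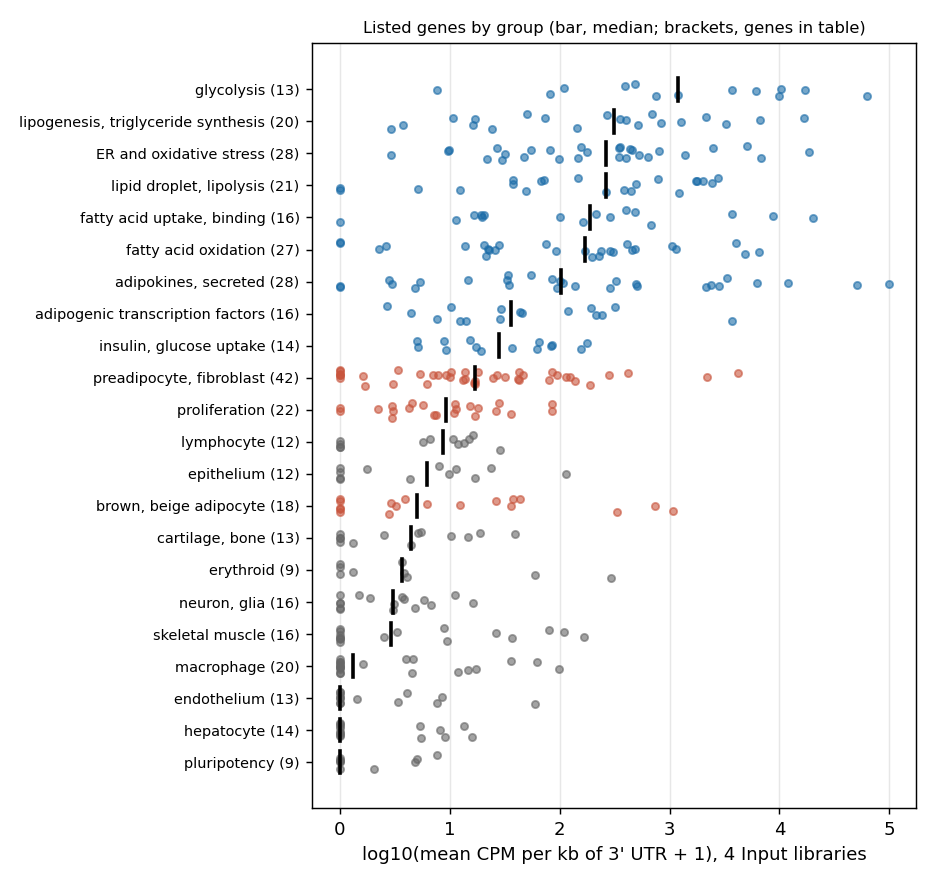
log10(mean CPM per kb of 3′ UTR + 1) of each listed gene over the 4 Input libraries (points), by group, with the group median (black bar) and the number of genes in the table. Metabolic, stress and adipocyte groups (blue) have the highest medians, from 27.1 CPM per kb for insulin and glucose uptake to 1204 for glycolysis, above preadipocyte genes (15.8) and proliferation genes (8.20), and the other lineages (grey) have medians of 7.66 CPM per kb or less.

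The difference between replicates 1 and 2 and replicates 3 and 4 was tested in edgeR (quasi-likelihood, Benjamini-Hochberg adjusted over 8605 features). The test called 0 features (0%), with a lowest adjusted p of 0.210, while 1435 features had an unadjusted p under 0.05. DESeq2's Wald test on the same counts called 501 features, 243 higher and 258 lower in replicates 1 and 2. Leaving out replicate 3 gave 704 calls and leaving out replicate 4 gave 2320, against 12 and 6 without replicates 1 and 2. In each of these fits the lone library of a pair is assumed to vary like the other pair. With the libraries only ordered, replicates 1 and 2 were both above replicates 3 and 4 in 24.9% of tested features and both below in 28.9%. These shares are the background for the lists.

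Ribosomal protein genes stood apart in this ordering: in 74 of 79 replicates 1 and 2 were both above, and in 0 both below, with a median log2 fold change of 1.56 against 0.08 over all tested features. Genes of the endoplasmic reticulum and oxidative stress responses were above in 15 of 27 and below in 1, with a median of 0.81. In this list Hspa5, the chaperone BiP, had 431, 483, 74.6 and 70.3 CPM, and Calr, calreticulin, had 1598, 1823, 517 and 462 CPM. Hmox1, heme oxygenase, had 951, 236, 0 and 16.5 CPM, and Sqstm1, the autophagy adaptor p62, had 998, 625, 186 and 210.1 CPM. Ddit3, the stress factor CHOP, had 965, 1472, 605 and 939 CPM, and its 3′ UTR overlaps Mars on the opposite strand. The pairs differed widely for Hspa5, Calr, Sqstm1 and Hmox1 and only slightly for Ddit3. Secreted-protein genes were above in 11 of 20 and below in 2.

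Glycolysis and lipid storage lay on the other side. Replicates 3 and 4 were both above in 7 of 13 glycolytic genes, in 9 of 18 genes of triglyceride synthesis and in 10 of 18 lipid droplet genes, while replicates 1 and 2 were both above in 1, 2 and 3 of these. Tpi1 had 6361, 7257, 14679 and 18524 CPM, Aldoa 6211, 8381, 12725 and 18640.5 CPM, Ldha 1983, 2320.4, 6282 and 9318 CPM, and Gpi1, glucose 6-phosphate isomerase, 1267, 2073, 3425 and 4890.0 CPM. For these 4 genes the log2 fold changes were -1.11, -0.94, -1.69 and -1.14, and no adjusted p from the main edgeR fit was under 0.21. With a mean count of at least 50, their edgeR adjusted p were 0.00925, 0.0229, 0.00887 and 0.0256. With DESeq2's size factors, Lars2 kept in the totals, plain library totals or no filter, none was under 0.05 in edgeR. Pkm, pyruvate kinase, had 3271, 2879, 3411 and 3627 CPM and a log2 fold change of -0.01. Preadipocyte genes split evenly, with replicates 1 and 2 above in 6 of 28 and below in 6.

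The difference between the pairs moved with 3′ UTR length over all tested features. The median log2 fold change of replicates 1 and 2 over 3 and 4 was 0.72 for 3′ UTRs of 2 to 509 bases, 0.40 for 510 to 1210 bases, -0.13 for 1211 to 2323 bases and -1.08 for longer ones. Across 8605 features, which share the same 4 libraries, Spearman's rho was -0.44. The tested ribosomal protein genes had a median 3′ UTR of 89 bases, the secreted-protein genes 415, the glycolytic genes 486, the stress genes 791 and the triglyceride synthesis genes 1235. The short 3′ UTRs of ribosomal protein genes and the longer ones of triglyceride synthesis genes thus lay on the side their length has over all features, whereas the glycolytic genes, also short, lay on the opposite side. The part of length in these differences was not tested.

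**Figure D4:**
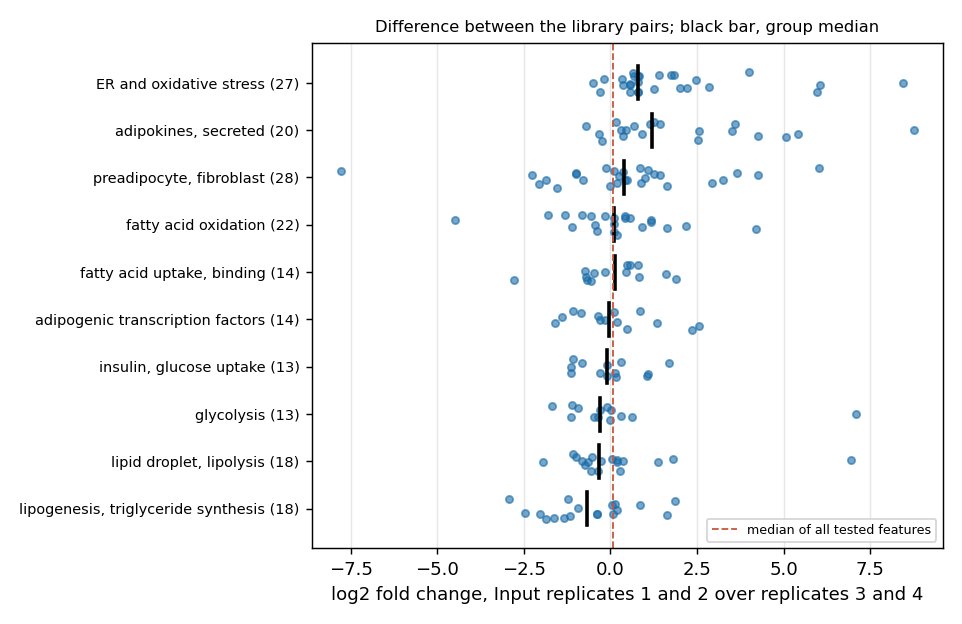
Log2 fold change of Input replicates 1 and 2 over replicates 3 and 4 for each tested gene (points) by list, with the list median (black bar) and the number tested; the dashed line is the median of all 8605 tested features, 0.08. Stress and secreted-protein genes lie mostly to the right of the line and triglyceride synthesis genes mostly to the left.

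Input was then set against the precipitates to show where the whole-lysate RNA differs from precipitated RNA. All 12 libraries were fitted in one edgeR model, and 9273 features were tested. Against the control immunoglobulin, 18.9% of features were higher in Input and 21.1% lower, and against CPEB4 21.6% were higher and 31.6% lower. Both comparisons use the same Input libraries. The median log2 fold change over all tested features was -0.27 and -0.56, and with DESeq2's size factors 0.04 and 0.08, so folds are read relative to these medians. In numbers, 1750 features were higher and 1955 lower against the control immunoglobulin, and 1999 higher and 2930 lower against CPEB4. The split depended on scaling: with Lars2 kept in the totals it was 2073 higher and 1521 lower against the control immunoglobulin, and with DESeq2's size factors 2557 higher and 2105 lower against CPEB4. Input alone was poly(A) selected, so the selection, the precipitation and the depth cannot be told apart in these comparisons.

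Glycolytic, ribosomal protein and respiratory chain genes were higher in Input than in either precipitate. Against the control immunoglobulin 10 of 13 glycolytic genes, 68 of 75 ribosomal protein genes and 69 of 91 respiratory chain genes were higher and 0, 0 and 2 lower. Against CPEB4 the counts higher were 10, 69 and 74, and those lower were 0, 0 and 5. Aldoa stood at 11489 ± 5483 CPM in Input, 308 ± 119 in the control precipitate and 68.5 ± 37.6 in the CPEB4 precipitate (SD, n = 4 each). Its log2 fold changes were 5.44 ± 0.54 (SE, edgeR adjusted p = 2.63e-06) and 7.14 ± 0.58 (edgeR adjusted p = 1.33e-07). Aldoa, Pcx and Dgat1 were named for their high level in these same Input libraries, so their values against the precipitates are descriptive only. The glycolytic, ribosomal protein and respiratory chain lists hold 5, 2 and 7 of the 30 most abundant Input features. The counts of these lists against the precipitates are therefore descriptive only as well. Gapdh, the glycolytic dehydrogenase, stood at 667 ± 161, 23.2 ± 8.49 and 6.11 ± 1.79 CPM. Among lipid genes, Pcx stood at 7776 ± 1299, 341 ± 77.0 and 160 ± 21.7 CPM, and Dgat1 at 1462 ± 294, 46.0 ± 25.9 and 15.2 ± 8.76 CPM. Vim, of the fibroblast list, stood at 1306 ± 389, 171 ± 87.7 and 34.9 ± 10.5 CPM. All 5 of these genes were also higher in Input within replicates 1 and 2 of all groups and within replicates 3 and 4.

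Signalling genes lay on the other side. Of 13 insulin and glucose uptake genes, 7 were lower in Input than in the control precipitate and 0 higher, and against CPEB4 9 were lower and 0 higher. With DESeq2's size factors 6 and 8 were lower and 1 was higher in each. Insr stood at 67.7 ± 19.3 CPM in Input, 999.97 ± 192 in the control precipitate and 1424 ± 128 in the CPEB4 precipitate, with log2 fold changes of -3.57 ± 0.37 (edgeR adjusted p = 3.14e-06) and -4.61 ± 0.38 (edgeR adjusted p = 1.53e-07). Pik3r1, the regulatory subunit of PI3 kinase, stood at 67.4 ± 32.5, 1346 ± 344 and 994 ± 252 CPM. Cav1, the caveolin of the adipocyte surface, stood at 143 ± 85.2, 1959 ± 292 and 2694 ± 368 CPM. Of 15 adipogenic transcription factors, 7 were lower in Input and 1 higher against the control precipitate, and 10 lower and 1 higher against CPEB4. Klf15 is among those lower in both comparisons. It had 8, 0, 0 and 0 counts in Input replicates 1 to 4 and passed the filter only through the precipitates (38.3 and 72.0 CPM). Its call was thus fixed by how it entered the test and is not support. The factor that was higher in both was Nr1h3, with 1008 ± 505 CPM in Input against 33.2 ± 22.2 and 5.96 ± 4.60 CPM. Nr3c1, the glucocorticoid receptor, stood at 51.7 ± 12.7, 373 ± 27.1 and 548 ± 37.3 CPM.

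The 4 adipocyte markers did not move together. Adipoq was higher in Input than in the control precipitate by a log2 fold change of 1.79 ± 0.35 (edgeR adjusted p = 0.000721) and than in the CPEB4 precipitate by 0.97 ± 0.33 (edgeR adjusted p = 0.0214). The latter call was lost without replicate 1, 2 or 4 (edgeR adjusted p = 0.0546, 0.0602 and 0.0775) and within replicates 3 and 4 (1.34, edgeR adjusted p = 0.0628). Plin1 was higher by 1.79 ± 0.36 (edgeR adjusted p = 0.000967) and 1.34 ± 0.34 (edgeR adjusted p = 0.0034), and both calls were lost within replicates 3 and 4 (1.81 and 1.52, edgeR adjusted p = 0.0522 and 0.0586). Fabp4 had log2 fold changes of -0.02 ± 0.46 (edgeR adjusted p = 0.981) and -1.28 ± 0.47 (edgeR adjusted p = 0.0295), and the latter call was lost with DESeq2's size factors (-0.61, edgeR adjusted p = 0.274). It was also lost with DESeq2's Wald test, Lars2 kept in the totals, a mean count of at least 50 (-0.28), 8 libraries, and without replicate 2, 3 or 4. The call held with plain library totals, no filter, the replicate block, without replicate 1 and within replicates 3 and 4. Within replicates 1 and 2, Fabp4 was higher in Input than in the control precipitate by 1.31 (edgeR adjusted p = 0.00305), and within replicates 3 and 4 its log2 fold change was -1.58 (edgeR adjusted p = 0.074). Against CPEB4 the values were -0.22 (edgeR adjusted p = 0.442) and -2.39 (edgeR adjusted p = 0.0192). The difference between the sets was not tested. Pparg had 0.97 ± 0.69 (edgeR adjusted p = 0.292) and 0.11 ± 0.61 (edgeR adjusted p = 0.898). Over the 67 tested genes of the joined adipocyte lists, 18 were higher and 18 lower in Input against the control precipitate, and 19 higher and 32 lower against CPEB4. The lower counts include Klf15, which passed the filter only through the precipitates. Over all tested features, 18.9% were higher and 21.1% lower against the control precipitate, and 21.6% higher and 31.6% lower against CPEB4. Of 27 tested preadipocyte genes, 2 were higher and 8 lower against the control precipitate. Against CPEB4, 3 were higher and 8 lower, the latter near the share of all features. These splits moved with scaling: with DESeq2's size factors the adipocyte lists had 21 higher and 14 lower against the control precipitate and 23 higher and 23 lower against CPEB4, and the preadipocyte list had 7 higher and 5 lower against CPEB4. Under that scaling 22.1% of all features were higher and 17.1% lower against the control precipitate, and 27.6% higher and 22.7% lower against CPEB4.

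Within replicates 1 and 2 alone, 3671 features were called against the control precipitate and 5547 against CPEB4, and within replicates 3 and 4, 1979 and 3049. Over all 12 libraries the counts were 3705 and 4929. Of the 9304 features tested within replicates 1 and 2, 20.6% were higher in Input and 18.9% lower against the control precipitate, and 28.7% higher and 30.9% lower against CPEB4. Of the 9960 tested within replicates 3 and 4, 7.46% were higher and 12.4% lower, and 11.8% higher and 18.8% lower. Glycolytic genes higher in Input against the control precipitate numbered 11 of 13 and 9 of 13 within these sets, with 0 and 1 lower, and ribosomal protein genes 71 of 79 and 31 of 72, with 0 and 1 lower. These list counts are descriptive only, for the reason given above. Insulin and glucose uptake genes lower in Input than in the control precipitate numbered 6 of 13 and 7 of 13, with 0 higher in both. Preadipocyte genes against CPEB4 numbered 8 of 30 higher and 5 lower within replicates 1 and 2, and 1 of 24 higher and 6 lower within replicates 3 and 4. The share of preadipocyte genes that was higher in replicates 1 and 2 was near that of all features, and the counts are read no further.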

How the data were processed

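Counts of reads per transcript 3′ UTR in 12 libraries were deposited by the authors as raw counts, beside log2 normalised counts that the authors computed (log2 of the count times a factor per library plus 1), which were not used further. Feature width in bases is given per the file headers. Per the submitters' processing notes, the tools were featureCounts, Bowtie2 2.2.2, Bowtie 1.2.3 and, for testing, DESeq2 1.22.1, with build mm10, strand setting and annotation release not given in the sources used here. CPM used library totals without Lars2. Tests used R 4.3.3, edgeR 4.0.16 (filterByExpr with a minimum count of 10 and total of 15, TMM, quasi-likelihood, prior count 0.125, adjusted p of 0.05) and DESeq2 1.42.0. The edgeR step was run on simulated counts with known changes. Its only pass condition was the sign of these changes and not the number called, so a pass does not show the power of the tests. The library comparison used the 4 Input libraries. Comparisons with precipitates used all 12.

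Named were the 30 features of highest mean CPM, the 20 highest per kb and members of 22 gene lists (ribosomal and respiratory genes by symbol pattern). Members and lists were chosen with earlier results of these data known. Where a gene had several features, that with the highest Input count stood for it. Same-numbered Input and CPEB4 libraries deviated together from their group means (r of 0.288, 0.251, 0.218 and 0.198), each over 0.1, so the numbers were taken as pairing them. Differently numbered libraries of one library set correlated as closely (0.303 for Input 1 with CPEB4 2, 0.197 for Input 4 with CPEB4 3), so the check does not separate the number from the set. The main fits had no term for the replicate number. Alternatives covered scaling, filters, left-out replicates, the replicate block and separate library sets.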

Additional observations from a re-analysis of the deposited data

Results flagged for a closer look

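Of 100 values tested in the 4 Input libraries, 9 had 1 library far from the other libraries relative to the range of all 4. The cut-off gives about 1 in 20 for independent, normally distributed values. These values include zeros, genes chosen with the data known and list sums that hold some of those genes, so the 9 are listed and not compared with that rate. Replicate 1 stood apart with 117 CPM for the preadipocyte factor Dlk1, 147 CPM for the chemokine Ccl2 and 77.9 CPM for the chemokine Cxcl1. For Ccl2 the other libraries had 2.88, 0 and 0 CPM, and for Cxcl1 0.958, 0 and 0 CPM. Replicate 2 stood apart with 153 CPM for the beta-globin Hbb-bs and 174 CPM for the sum of the red cell list, which this gene mostly makes up.

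Replicate 3 stood apart with 276 CPM for the lysozyme Lyz1, 130 CPM for Tyms, 277 CPM for the sum of the neuron and glia list and 250.3 CPM for the sum of the epithelium list. The neuron and glia sum was 15.3, 28.8 and 57.2 CPM in replicates 1, 2 and 4, and the epithelium sum 17.7, 15.3 and 51.0 CPM.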

How the results depend on the processing

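The count of features called between the library pairs, 0 in the report, was 501 with DESeq2's Wald test, 315 without a filter, 267 with a mean count of at least 50, and 6 to 2320 when 1 library was left out. It stayed 0 with DESeq2's size factors, with Lars2 kept in the totals and with plain library totals, the last of these added after seeing the data. Against the control precipitate and against CPEB4, calls fell to 2215 and 2451 with a mean count of at least 50, where fewer features are tested, and to 1979 and 3049 within replicates 3 and 4, where fewer libraries enter; this split was also added later. Per kb of 3′ UTR, 8976.5 features reached 1 unit on average, the top 10 and top 100 features held 21.2% and 52.8%, and the adipocyte lists summed to 28226; with Lars2 counted as a feature the shares were 20.8% and 38.3%. Fabp4 against the control precipitate turned positive with DESeq2's size factors (0.35), DESeq2's Wald test (0.35), Lars2 kept in the totals (0.31), no filter (0.30), a mean count of at least 50 (0.52), 8 libraries (0.27) and replicates 1 and 2 alone (1.31), and ran from -0.67 to 0.66 when 1 replicate was left out. Pparg against CPEB4 ran from -0.30 to 0.75 when 1 replicate was left out and was -0.20 within replicates 3 and 4. The causes were not tested.

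With the replicate block, 3810 features were called against the control precipitate and 5133 against CPEB4, and no gene named in those comparisons changed its call. Same-numbered Input and control libraries deviated together with r of 0.173, 0.0567, 0.124 and 0.113, not each over 0.1, so the numbers were not taken as pairing them. Input and control libraries of different library sets had r from -0.172 to -0.0276, so the library set is shared between these groups. Depth limits genes under about 3 counts in a library, and 3359 features rest on 1 library.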
